A study of Bos taurus with 9 samples.

Results

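The growth hormone receptor and the IGF growth axis were followed through 4 genes, GHR, IGF1, IGF2 and IGF1R, in a comparison of bovine intercaruncular endometrium from short and from normal uterine tracts. The 4 genes were chosen by their Ensembl identifiers from the 21696 genes in the authors' deposited table, and all 4 were listed there with an adjusted p-value. The identifiers are ENSBTAG00000001335 for GHR, ENSBTAG00000011082 for IGF1, ENSBTAG00000013066 for IGF2 and ENSBTAG00000021527 for IGF1R. The symbols were given together with these identifiers when the genes were chosen. The deposited table itself lists identifiers only, and the RefSeq gene table at hand carried no Ensembl identifier for any of its 37063 genes, so the pairing was not checked here. All 4 symbols occur in that RefSeq table (assembly ARS-UCD2.0) as protein-coding genes.

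Growth hormone, released by the pituitary, acts on target cells through its receptor GHR, and in the liver this receptor drives the secretion of IGF1. IGF1 and IGF2 are small secreted growth factors related to insulin, and both act through the receptor tyrosine kinase IGF1R, whose signals promote growth and survival of cells. In the ruminant uterus the IGFs are made by the endometrium itself as well as reaching it from the blood, and they are among the growth factors to which the endometrium and the early conceptus are exposed.

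The study comprised 5 samples labelled Short and 4 labelled Normal, each of total RNA from frozen intercaruncular endometrium of Bos taurus, the glandular lining between the caruncles. The labels give no breed, age, cycle stage, treatment or batch for either group, and nothing in them says that the samples came from separate animals, so the errors measure a spread between libraries that may be technical. The question put by the design was which genes differ between Short and Normal tracts. The values are those of the authors' DESeq2 fit, which gives each gene a mean count per library after scaling for depth (mean normalized count), a log2 fold change of Short over Normal, and the standard error of that change.

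A few facts on the table apply to all 4 genes. The 825 genes with means under 2 times the smallest non-zero mean, each holding a single read, fell on 14 distinct values. The means were therefore taken over at least 14 libraries. A library much shallower than the deepest would fall outside that range of means and be missed. The sign of the fold change placed 5 of these libraries on the Short side, 4 on the Normal side and 5 on neither side. The counts of 5 and 4 match the numbers of Short and Normal samples, and a positive fold change was therefore read as higher in Short. The 5 other libraries, which the labels do not describe, entered the means and the error estimates. The level of each gene in Short and in Normal and its value in each sample are not analysed here, and how many samples share a direction is not known. In bulk tissue, a change in the number of cells of a type and a change in RNA per cell cannot be told apart. The tissue label was not checked against cell type markers, since no marker symbol is paired with an identifier here. Among all 16615 tested genes, the authors' deposited table calls 521, or 3.14%, at an adjusted p-value under 0.05 (Wald test of DESeq2 with Benjamini-Hochberg adjustment). Of the tested genes 0.891% (148) were called higher and 2.24% (373) lower in Short.

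None of the 4 genes passed that threshold. GHR and IGF2 had fitted levels 1.59 and 1.76 times as high in Short as in Normal, while the fitted levels of IGF1 and IGF1R in Short were 0.510 and 0.760 times those in Normal. The ligands thus had fitted changes of opposite sign, and so had the receptors. As no change passed the test, these signs are descriptions of the fitted values. At an unadjusted p-value under 0.05 there was 1 of the 4 genes, IGF2, against 13.2% of all tested genes (2191 of 16615). The median log2 fold change of the 4 genes was 0.14, against 0.04 over all tested genes. With 2 genes above 0 and 2 below it, that median describes none of the 4 and shows no shared shift. These counts and medians are descriptions, and no test of them was run.

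**Figure D1:**
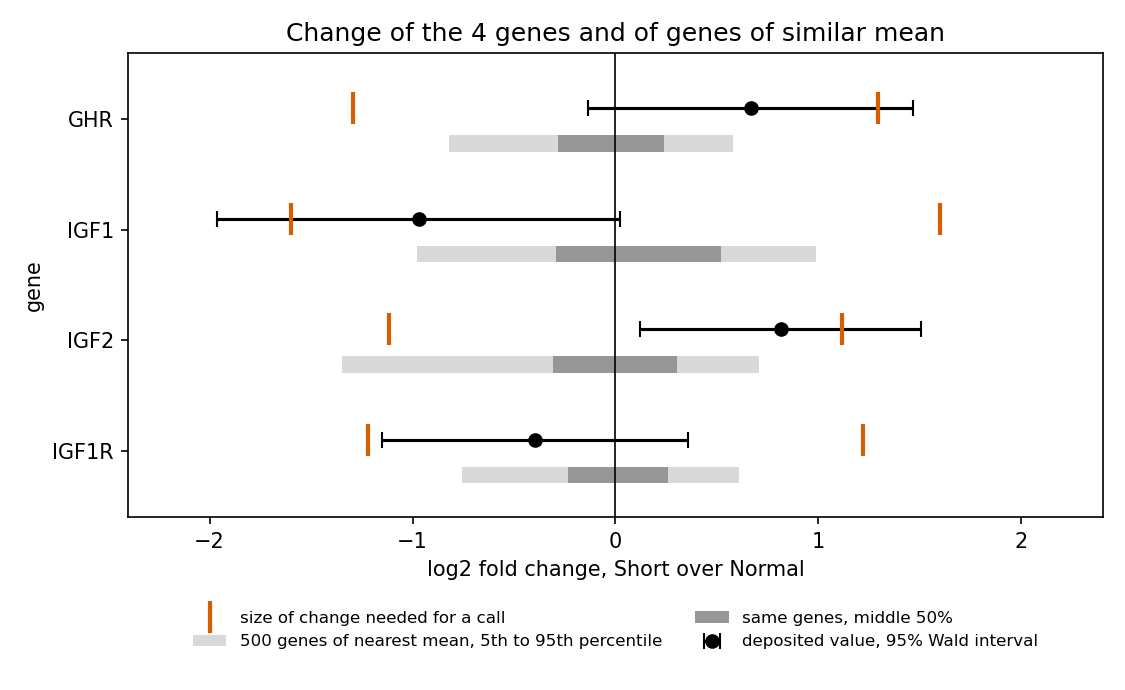
Log2 fold change of Short over Normal (horizontal axis) for GHR, IGF1, IGF2 and IGF1R, one gene per row. Points and lines are the deposited values with 95% Wald intervals, vertical ticks mark the size of change that a call needed at each gene's standard error, and grey bars give the middle 50% and the 5th to 95th percentile of the 500 tested genes of nearest mean. All 4 points lie inside their ticks. With no account of the number of genes tested, the interval of IGF2 alone leaves out 0.

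GHR is the receptor through which circulating growth hormone reaches a tissue. In the authors' deposited table it had a mean normalized count of 380 over all libraries of the fit, higher than that of 71.4% of the tested genes. Its log2 fold change there was 0.67 ± 0.41 (SE, 5 Short and 4 Normal), with an adjusted p-value of 0.525 by DESeq2. The 95% Wald interval ran from 0.911 to 2.76 times the Normal level. It therefore holds both no change and an increase of more than 2-fold, whereas a decrease to below 0.911 times lies outside it. The intervals of all 4 genes use the deposited standard errors and take no account of the number of genes tested. Wald scores of all tested genes had a spread of 1.19 (scaled median absolute deviation), wider than a standard normal score. The intervals may therefore be too narrow. Among the 500 tested genes of nearest mean (357 to 404), 4.2% had a higher log2 fold change than GHR and 12.4% a larger change in either direction. The middle 50% of those genes lay between -0.28 and 0.24. GHR thus stood toward the upper edge of its neighbours in size of change.

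The standard error of GHR was also above most of its neighbours, whose median was 0.31. Of the 500 genes, 28.6% had a larger one. At its own standard error GHR would have been called only from a change of 2.45-fold, since the smallest absolute Wald score of any called gene was 3.16. Of the 500 neighbours 16 were called, 4 higher and 12 lower in Short, and the median size of change of those 16 was 0.88 on the log2 scale. That median depended on the set of neighbours. Among the called of the 200 nearest genes it was 0.88, and among those of the 1000 nearest 1.23.

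IGF1 is the ligand whose release from the liver depends on GHR, and it is also transcribed in the uterus. It had the lowest mean of the 4 genes, 91.4 normalized counts, higher than that of 39.5% of the tested genes. Its change, as the authors' deposited table lists it, was -0.97 ± 0.51 (SE) on the log2 scale, with an unadjusted p-value of 0.0552 and an adjusted p-value of 0.400 by DESeq2. This was the largest fitted change of the 4 and also the one with the largest standard error. Its 95% Wald interval ran from 0.256 to 1.02 times the Normal level, so that no change and a level well below that of Normal both lie within it, and an increase above 1.02 times does not. Among the 500 genes of nearest mean (84.0 to 99.5), 5.6% had a lower log2 fold change and 11.0% a larger one in either direction. The genes around IGF1 leaned slightly the other way, with a median log2 fold change of 0.06 and a middle 50% from -0.30 to 0.52.

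At its standard error a call for IGF1 needed a change of 3.03-fold, the most of the 4 genes. Its neighbours had a median standard error of 0.42, and 33.0% of them exceeded that of IGF1. Of these 500 genes 13 were called, 6 higher and 7 lower in Short.

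IGF2, the second ligand, is transcribed from the paternal allele in many tissues of mammals, cattle included. It had the most reads of the 4 genes, with a mean of 3672 normalized counts, which placed it at rank 217 of the 16615 tested genes. Normalized counts are not divided by transcript length, so this order of counts is not an order of transcript levels between the genes. The authors' deposited table gives IGF2 a log2 fold change of 0.81 ± 0.35 (SE), an unadjusted p-value of 0.0212 and an adjusted p-value of 0.259 by DESeq2. The 95% Wald interval, which takes no account of the number of genes tested, ran from 1.09 to 2.84 times the Normal level. A smaller p-value was found for 1362 other genes, 8.20% of those tested.

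Among the 500 genes of nearest mean (1953 to 6862), 3.2% had a higher log2 fold change than IGF2 and 14.0% a larger change in either direction. Of these 500 genes 27 were called, 26 lower and 1 higher in Short, and of the 1000 nearest 44 were called lower and 4 higher, where 0.891% of all tested genes were called higher and 2.24% lower. The middle 50% of their log2 fold changes lay between -0.31 and 0.30 around a median of 0.01. IGF2 was the only one of the 4 genes whose standard error lay below the median of its neighbours, which was 0.39, and 59.4% of them had a larger one. It also needed the smallest change for a call, 2.17-fold, against its fitted 1.76-fold.

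IGF1R is the receptor tyrosine kinase that binds both ligands. It had a mean of 336 normalized counts, higher than that of 68.6% of the tested genes and close to that of GHR. The authors' deposited table lists for it a log2 fold change of -0.40 ± 0.39 (SE) and an adjusted p-value of 0.758 by DESeq2, the smallest change and the largest p-value among the 4 genes. The 95% Wald interval ran from 0.450 to 1.28 times the Normal level. Decreases beyond that lower bound and increases above 1.28 times lie outside it, while no change lies inside. Among the 500 genes of nearest mean (317 to 357), 16.0% had a lower log2 fold change and 29.8% a larger change in either direction. A call needed a change of 2.33-fold at its standard error, which was exceeded by 31.0% of those genes. Of these 500 genes 15 were called, 5 higher and 10 lower in Short.

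**Figure D2:**
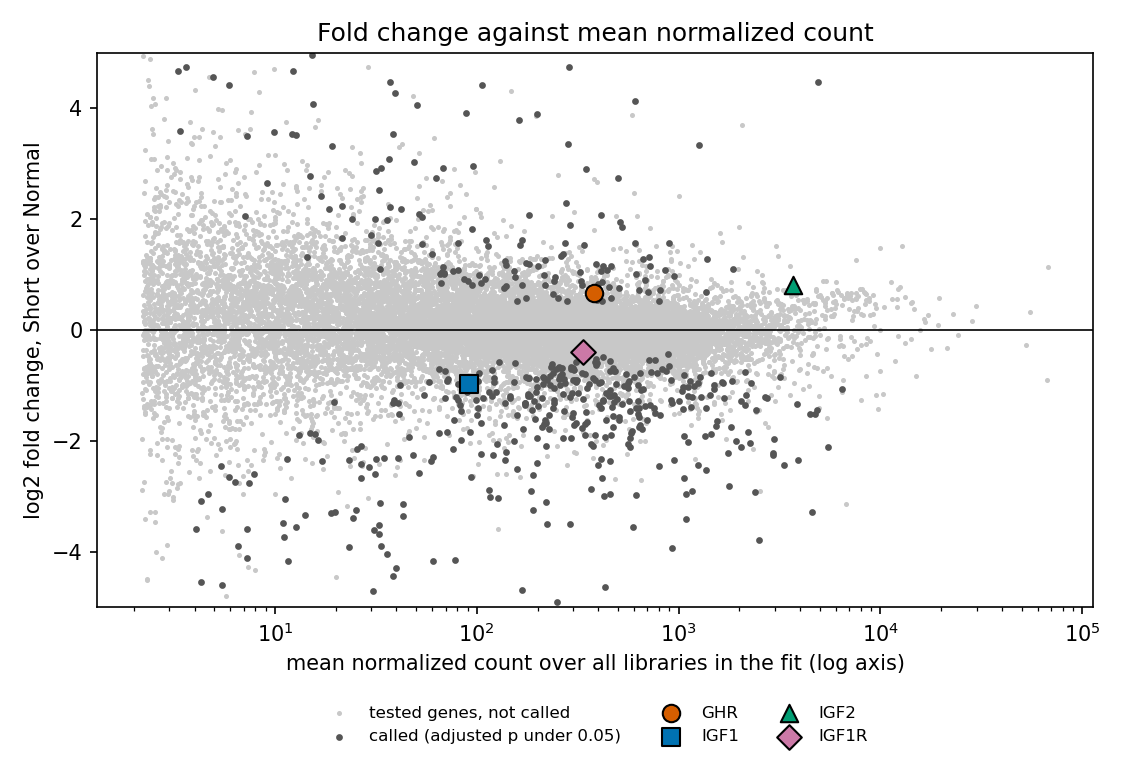
Log2 fold change of Short over Normal (vertical axis) against the mean normalized count over all libraries of the fit (horizontal log axis) for the 16615 tested genes. Dark points are the 521 called genes, coloured symbols are GHR, IGF1, IGF2 and IGF1R, and 30 genes beyond 5 in either direction fall outside the axis. GHR and IGF2 lie above 0 and IGF1 and IGF1R below it, all 4 among genes that were not called.

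Set side by side, the fold changes of the ligands lay farthest apart. The log2 fold change of IGF1 minus that of IGF2 was -1.78. For the receptors, the log2 fold change of GHR minus that of IGF1R was 1.06. GHR minus IGF1 gave 1.64, IGF2 minus IGF1R gave 1.21, IGF1 minus IGF1R gave -0.57 and GHR minus IGF2 gave -0.15. These 6 differences come from the same libraries and the table does not hold how their errors vary together, so none of them was tested.

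The standard errors also give the spread between libraries that the authors' fit assigned to each gene. Under the negative binomial variance that DESeq2 uses, with 5 Short and 4 Normal libraries of equal depth at the deposited mean, the standard error of IGF1 corresponds to a coefficient of variation of 51.3% between libraries beyond counting error. The same calculation gave 41.9% for GHR, 39.4% for IGF1R and 36.4% for IGF2. The medians among the 500 genes of nearest mean were 42.0% for IGF1, 31.2% for GHR, 31.6% for IGF1R and 40.5% for IGF2. At the deposited mean, counting error would make up 4.00% of the squared standard error for IGF1, 1.48% for GHR, 1.88% for IGF1R and 0.205% for IGF2. These shares would be larger, and the coefficients of variation smaller, if the Short and Normal levels lay below that mean. That spread was estimated by a fit that also held the 5 libraries on neither side. It is the value the fit used and was not measured from the samples. How far the fit drew it toward that of genes of similar mean is not known.

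**Figure D3:**
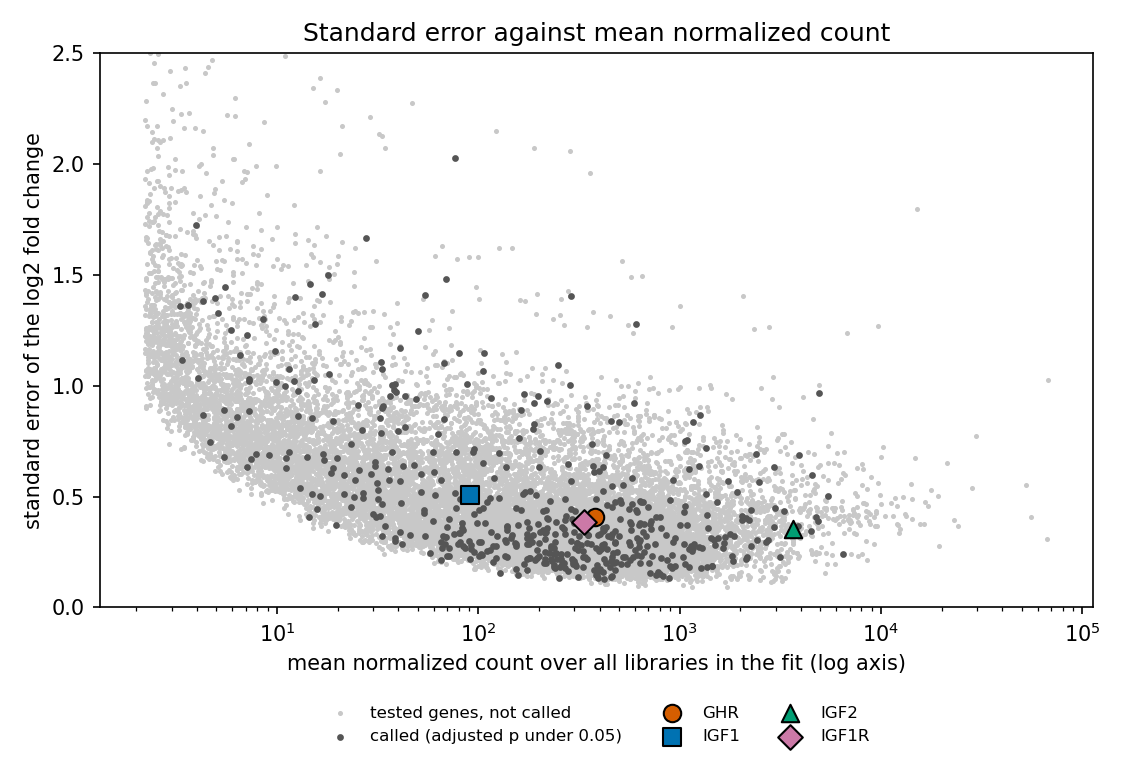
Standard error of the log2 fold change (vertical axis) against the mean normalized count over all libraries of the fit (horizontal log axis) for the 16615 tested genes, with 35 genes above 2.5 outside the axis. Dark points are called genes and coloured symbols the 4 genes. IGF1, at 0.51, has the largest standard error of the 4 and IGF2, at 0.35, the smallest.

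For a given number of libraries, the deposited mean sets an upper limit to the average level in each group. The limits below take 14 libraries in the fit, no reads of the gene in the 5 other libraries, and the fitted fold as the ratio of the group averages. IGF2 would then average 7066 normalized counts in Short and 4021 in Normal. The corresponding limits were 707 in Short and 445 in Normal for GHR, 99.7 in Short and 195 in Normal for IGF1, and 459 in Short and 604 in Normal for IGF1R. The true averages lie at or below these limits to the extent that the fitted fold is right and that no further library entered the fit. No error can be given for the limits.

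Each gene was counted as 1 feature. The RefSeq table lists 10 transcripts for IGF1, 8 for IGF2, 4 for IGF1R and 1 for GHR, and a shift between transcripts of a gene would not show in these values. The binding proteins, proteases, adaptors and feedback genes of the pathway were not analysed here, because their symbols are not paired with identifiers.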

How the data were processed

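RNA of 5 Short and 4 Normal samples was sequenced, and 1 result table of the whole series was used. The submitters' processing notes name the build ARS-UCD1.2 and the tools HISAT2, SAMtools, HTSeq and DESeq2. Their versions, the annotation, the strand setting, any filter and any shrinkage of fold changes were not given in the sources used. Per the file headers, the authors deposited for each gene the mean normalized signal (counts divided by size factors), the log2 fold change with its standard error, a Wald score, and p-values before and after adjustment. The deposited score equalled the ratio of log2 fold change to standard error, and the p-values and their adjustment were recomputed, all within 1e-10. Library totals are not analysed here, and the mean normalized counts of all genes summed to 7483809.

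All tests are the authors' DESeq2 Wald tests, adjusted over 16615 genes; 5081 genes have no adjusted p-value. From the table, with Python 3.11.15, pandas 2.3.3, numpy 2.4.6 and scipy 1.17.1, were computed the 95% Wald intervals, percentages among the 500 tested genes of nearest log mean (a description, since genes are not replicates), and the coefficient of variation implied by each standard error. The adjustment, the re-centring and the last of these were tested on simulated data. For the coefficient of variation the simulation used the mean of each group, whereas here the deposited mean stood in for both groups. That substitution was not tested. The 4 genes and the lists were chosen with earlier results of these data known. The naming rule took the 4 genes in full, and pathway genes and cell type markers only where a symbol is paired with an identifier, which was the case for none. Alternatives were another set of genes for the adjustment, a minimum mean of 10, a threshold of 0.1, a score re-centred on an empirical null, centred fold changes and other definitions of similar mean.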

Additional observations from a re-analysis of the deposited data

How the results depend on the processing

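None of the 4 genes passed the threshold or changed sign under any of the 6 alternatives run on its test. The adjusted p-values ranged from 0.510 to 0.904 for GHR, from 0.362 to 0.746 for IGF1, from 0.248 to 0.680 for IGF2 and from 0.727 to 0.971 for IGF1R. All upper ends came from the empirical null, which re-centres and rescales the authors' DESeq2 score. The lower ends for IGF1 and IGF1R came from centred fold changes over the deposited standard errors, and those for GHR and IGF2 from the unchanged DESeq2 score. Centring the fold changes on all tested genes or on the 500 of nearest mean gave log2 fold changes of 0.62 and 0.68 for GHR, -1.01 and -1.03 for IGF1, 0.77 and 0.80 for IGF2, and -0.44 and -0.43 for IGF1R; the unadjusted p-value of IGF1 was then 0.0454 and 0.0414, against 0.0552 as deposited. With the score re-centred and rescaled on an empirical null (centre 0.11, spread 1.19), the unadjusted p-value of IGF2 was 0.0647, and the number of called genes was 194, 20 higher and 174 lower in Short, instead of 521, 148 and 373. The spread was taken from the tested scores themselves, and at 1.19 it widens the null. The count stayed between 457 and 706 under the other alternatives, of which the centred ones (543 and 546 calls) were added for the count after seeing the data. With 200, with 1000 or with all genes within a fixed ratio of the mean (2940 to 4582 for IGF2), the share of similar genes with a larger change ranged from 11.4% to 13.0% for GHR, 10.8% to 11.5% for IGF1, 12.0% to 12.8% for IGF2 (14.0% with 500 genes) and 29.5% to 31.3% for IGF1R. The share with a larger standard error moved most for IGF1, to 29.0% with 200 genes. Leaving out each replicate was not run, as the table holds no value per sample. No paired analysis was possible because no label links a Short sample with a Normal one. How far depth limited the values of these genes is not known, as their levels in Short and Normal are not.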
